A study of Rattus norvegicus with 6 samples.

Results

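The genes described are the 9 islet hormone and neuropeptide genes Ins1, Ins2, Iapp, Gcg, Npy, LOC100912228, Cck, Gast and Vgf, measured by RNA sequencing in INS-1 cells. They were chosen by symbol from a deposited table that names 21553 genes, and all 9 were among the 13363 genes with enough counts to be tested. INS-1 is an insulin-secreting line from a rat insulinoma. The INS-SMA group (n = 3 libraries, genotype given as SMA overexpression) was made by lentiviral delivery of a gene for alpha smooth muscle actin. The INS-MOCK group (n = 3 libraries) has the genotype wild type, and its labels leave unstated whether it was exposed to lentivirus. Cells of both groups were at passages 7 to 15. The sources used here do not say which promoter drives the actin, or whether a group is 1 clone or a mixed population of infected cells. The study compared the groups to find genes that differ when INS-1 cells carry the actin gene.

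Hormone genes encode long precursors that are cut into active peptides inside secretory granules, mainly by the proprotein convertases PC1/3 and PC2. In the islet, insulin and amylin come from beta cells and glucagon from alpha cells, while neuropeptide Y, cholecystokinin and gastrin are made mostly by neurons and by gut endocrine cells. Insulinoma lines such as INS-1 can transcribe several of these genes in the same culture. Insulin gene transcription rests on short promoter elements, among them E boxes and A boxes, bound in beta cells by factors such as NeuroD1 and Pdx1.

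Counts are given as CPM (counts scaled to a common library size, with TMM factors), and differences as log2 fold changes of INS-SMA over INS-MOCK with their standard error (SE). A gene was called when its Benjamini-Hochberg adjusted p in edgeR's quasi-likelihood test fell below 0.05. Of the 9 genes, 6 were called lower (Ins1, Ins2, Gcg, Npy, LOC100912228 and Gast), 1 was called higher (Cck), and Iapp and Vgf did not pass. Reads of Ins1 and Ins2, and of Npy and LOC100912228, may not be separable. With each of these pairs merged, 4 were called lower and 1 higher. Among all tested genes 27.0% were called lower, 28.1% higher and 55.1% in either direction. The median log2 fold change of the 9 genes was -2.82, and that of all tested genes was 0.03. In 7 of the 9 genes the libraries of the groups did not overlap, which was so for 65.3% of all tested genes. The 9 genes together held 0.187% ± 0.021 of all named-gene counts in INS-SMA, against 2.69% ± 0.127 in INS-MOCK (SD, n = 3 each). The groups did not overlap in this share, and the exact two-sided permutation p was 0.1, the smallest that 3 against 3 libraries can give.

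**Figure D1:**
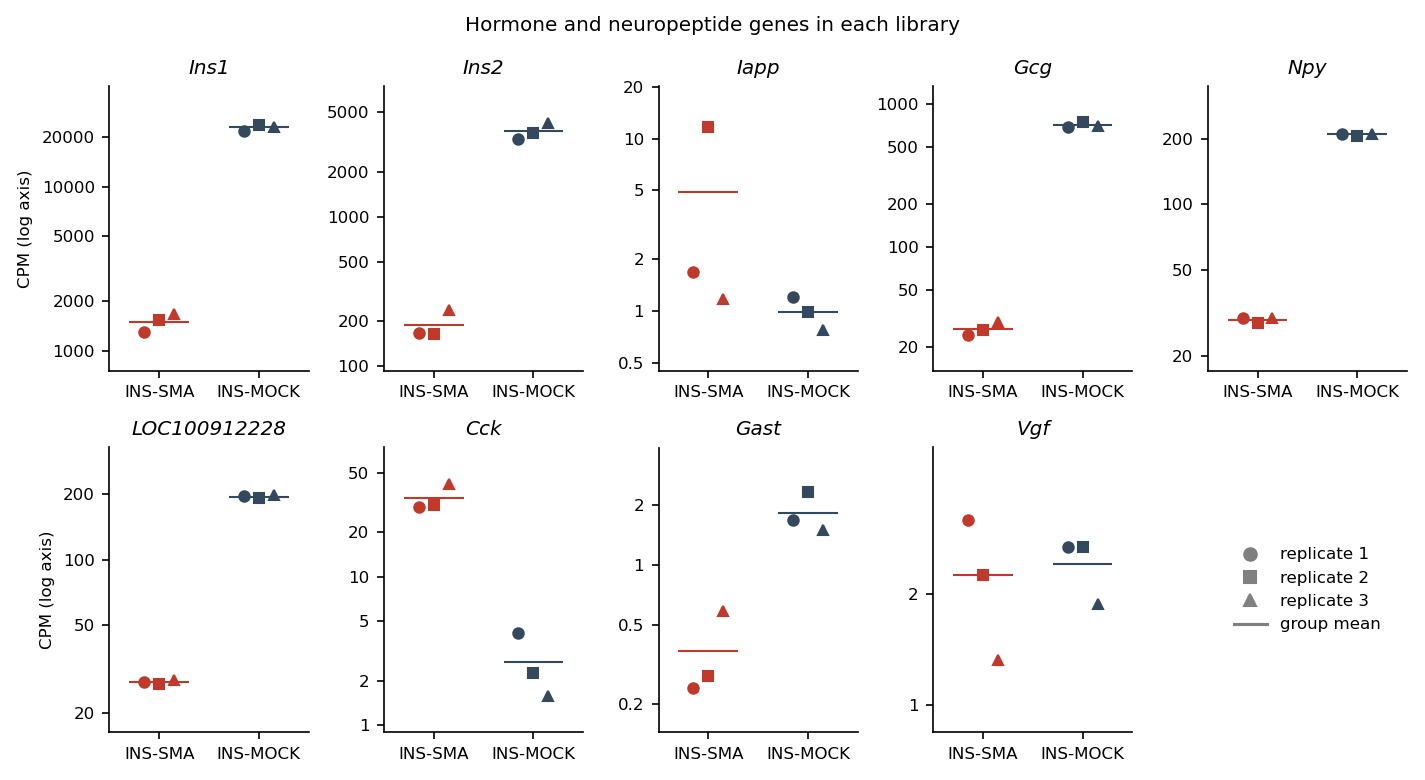
CPM of each gene in each library on log axes, with INS-SMA in red on the left and INS-MOCK in dark blue on the right. Marker shapes stand for replicates and lines for group means. The groups are far apart for Ins1, Ins2, Gcg and both neuropeptide Y rows, Cck alone is called higher in INS-SMA, and 1 INS-SMA library (replicate 2, 11.7 CPM) sets the Iapp mean.

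Library totals ran from 24719503 to 39608609 counts in INS-SMA and from 34471794 to 37466920 in INS-MOCK, and 3 counts, taken as the detection floor, correspond to 0.117 to 0.180 CPM. The human ACTA2 sequence held 4.54% to 5.93% of the named counts in the INS-SMA libraries, against at most 0.000696% in INS-MOCK, so the labels fit the delivered gene. Genes of mitochondrial DNA held 3.51% to 3.82% of the named counts in INS-SMA, against 7.30% to 8.15% in INS-MOCK. Between 32.7% and 36.7% of a library's counts lay in assembled transcript rows without a gene name, so reads of a hormone gene that fell there are missing from its value. Markers of cells other than beta cells were counted as summed CPM. Immune markers (7 of 11 in the table) summed to 4.45 to 8.79 CPM in INS-SMA, against 0.124 to 3.00 CPM in INS-MOCK. For fibroblast and endothelial markers (10 of 12 in the table) the sums were 20.7 to 34.1 CPM in INS-SMA, against 61.9 to 88.3 CPM in INS-MOCK. For acinar and duct markers (9 of 14 in the table) they were 22.8 to 24.5 CPM in INS-SMA, against 19.0 to 29.0 CPM in INS-MOCK. For delta, PP and epsilon cell markers (3 of 7 in the table) they were 0.901 to 2.96 CPM in INS-SMA, against 0.413 to 0.717 CPM in INS-MOCK. No marker in the table was at 0 in every library. The part of any of these in the results was not tested.

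The insulin genes carried 93.1% ± 0.411 of the counts of the set in INS-SMA and 95.9% ± 0.146 in INS-MOCK (SD, n = 3 each). Ins1 (ENSRNOG00000012052, chromosome 1, 272799784 to 272800347, plus strand) and Ins2 (ENSRNOG00000020405, chromosome 1, 215856971 to 215858034, minus strand) both encode preproinsulin. In rat and mouse, Ins1 is a retroposed copy of Ins2. Positions are those of the deposited table, whose processing notes name rn6 as the only rat build. The RefSeq sequences of 250 bases before each start, on build GRCr8, are shown because the promoters of this pair are alike. Whether promoter likeness bears on the fold changes was not tested. In capitals are the E box core CATCTG, the A box core TAAT and the cAMP response element core TGACG on either strand, and the TATA box TATAAA on the gene's own strand, with overlapping matches run together. The Ins1 stretch is chr1:261185869-261186118 (plus strand) and the Ins2 stretch is chr1:207273806-207274055 (minus strand).
Ins1: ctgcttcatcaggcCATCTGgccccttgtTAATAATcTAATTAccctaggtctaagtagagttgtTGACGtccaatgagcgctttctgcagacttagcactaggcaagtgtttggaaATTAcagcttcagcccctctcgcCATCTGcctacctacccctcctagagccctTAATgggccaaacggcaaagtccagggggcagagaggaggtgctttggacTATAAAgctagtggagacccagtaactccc
Ins2: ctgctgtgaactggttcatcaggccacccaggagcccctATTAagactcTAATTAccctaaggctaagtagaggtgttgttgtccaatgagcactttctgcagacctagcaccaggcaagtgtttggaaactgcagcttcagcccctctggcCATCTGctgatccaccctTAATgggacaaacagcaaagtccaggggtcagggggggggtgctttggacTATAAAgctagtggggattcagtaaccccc
In a pairwise alignment 205 of 238 aligned bases were identical (86.1%). The Ins1 stretch holds 2 E box cores, 6 A box cores, 1 cAMP response element core and a TATA box. The Ins2 stretch holds 1 E box core, 4 A box cores, a TATA box and 0 cAMP response element cores. Among 33469 RefSeq stretches of the same length, 14% hold the E box core at least once and 1.2% at least 2 times. For the A box core the share is 57%, for the cAMP response element core 18.2% and for the TATA box 8.06%. These matches describe letters in a window and are not mapped binding sites.

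Ins1 had 21741, 33683 and 42782 counts in the INS-SMA libraries, against 531884, 528764 and 543141 in the INS-MOCK libraries. As CPM these were 1306, 1546 and 1664 in INS-SMA, against 21966, 23701 and 23213 in INS-MOCK. Each INS-SMA library lay far below each INS-MOCK library, and transcripts of the gene were still abundant in INS-SMA. Ins1 fell, with a log2 fold change of -3.93 (SE 0.11 and an edgeR adjusted p of 6.86e-06), which is 15.3-fold lower. In bulk RNA, fewer insulin-positive cells and less insulin RNA per cell cannot be told apart.

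Ins2 had 2763, 3586 and 6162 counts in the INS-SMA libraries, against 80244, 80833 and 98934 in the INS-MOCK libraries. That is 166, 165 and 239.6 CPM in INS-SMA, against 3314, 3623 and 4228 CPM in INS-MOCK. Replicate 3 was the highest library within each group, and the groups did not overlap. Ins2 fell by 4.29 on the log2 scale (SE 0.20 and an edgeR adjusted p of 3.07e-05), 19.6-fold lower, and the 95% intervals of Ins2 (-4.80 to -3.78) and Ins1 (-4.20 to -3.66) overlap.

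The share of Ins1 among all insulin counts was 88.7%, 90.4% and 87.4% in INS-SMA, against 86.9%, 86.7% and 84.6% in INS-MOCK. Every INS-SMA library was above every INS-MOCK library, by 2.76 percentage points in the means, with an exact two-sided permutation p of 0.1. The genes are near-identical copies whose reads can be assigned to either, and the counts are not per transcript length, so the split itself is uncertain. Taken as 1 feature, Ins1 with Ins2 had a log2 fold change of -3.97 (SE 0.10).

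By the rule set for similar patterns (the smallest root-mean-square difference of centred log2 CPM over the 6 libraries, among 9349 genes of at least 5 CPM), the gene nearest to Ins1 was Tff3, which encodes the secreted trefoil factor 3, at a distance of 0.056. Tff3 was at 10.8, 13.3 and 15.0 CPM in INS-SMA, against 195, 216 and 217 CPM in INS-MOCK. Next for Ins1 came Fn1, which encodes fibronectin, at 0.243. Tff3 was also nearest to Ins2, at 0.200, followed at 0.318 by Enpp2, the autotaxin gene. Nearest genes are picked on these same libraries, so likeness in single libraries follows from the rule and adds no separate evidence.

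Gcg (ENSRNOG00000005498, chromosome 3, 48442635 to 48451650, minus strand) encodes proglucagon, which PC2 cuts to glucagon in alpha cells and PC1/3 cuts to the glucagon-like peptides in gut L cells. Its upstream stretch is shown as the third promoter with E box cores in the set. It lies at chr3:67531534-67531783 on GRCr8 (minus strand).
Gcg: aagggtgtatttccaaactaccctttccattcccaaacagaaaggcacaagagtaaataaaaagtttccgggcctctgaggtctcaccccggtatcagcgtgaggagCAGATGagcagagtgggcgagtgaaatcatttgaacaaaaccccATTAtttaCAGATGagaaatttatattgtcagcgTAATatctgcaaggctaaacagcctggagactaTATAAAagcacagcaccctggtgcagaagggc
It holds 2 E box cores, read on the opposite strand as CAGATG, 2 A box cores, a TATA box and 0 cAMP response element cores.

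Gcg had 406, 580 and 774 counts in the INS-SMA libraries, against 16751, 16710 and 16416 in the INS-MOCK libraries. In CPM it was at 24.4, 26.6 and 30.1 in INS-SMA, against 691.8, 749 and 701.6 in INS-MOCK. The groups were far apart and each was tight. Gcg fell by 4.72 on the log2 scale (SE 0.10 and an edgeR adjusted p of 4.17e-06), 26.4-fold lower. Among the 9356 tested genes with a mean of at least 5 CPM it stood at rank 20 from the lowest fold change, with Ins2 at rank 25 and Ins1 at rank 34.

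Set against Ins1 within each library, Gcg was lower in INS-SMA. Per 100 Ins1 counts there were 1.87, 1.72 and 1.81 Gcg counts in INS-SMA, against 3.15, 3.16 and 3.02 in INS-MOCK. The ratio averaged 1.80 ± 0.073 in INS-SMA and 3.11 ± 0.077 in INS-MOCK (SD, n = 3 each), with no overlap and an exact two-sided permutation p of 0.1. The genes nearest to Gcg in pattern were Dpp7, which encodes a lysosomal dipeptidyl peptidase, at 0.275, and Enpp2 at 0.319. Other alpha cell markers were mixed: of 5 tested, 3 were called lower, among them Gc and Slc7a2, Tmem27 was called higher, and Dpp4 had a log2 fold change of -0.22 (edgeR adjusted p = 0.319). The list of alpha cell markers (7 of 10 in the table) summed to 829.5 to 915 CPM in INS-SMA, against 2073 to 2228 CPM in INS-MOCK, and its part in the Gcg result was not tested.

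**Figure D2:**
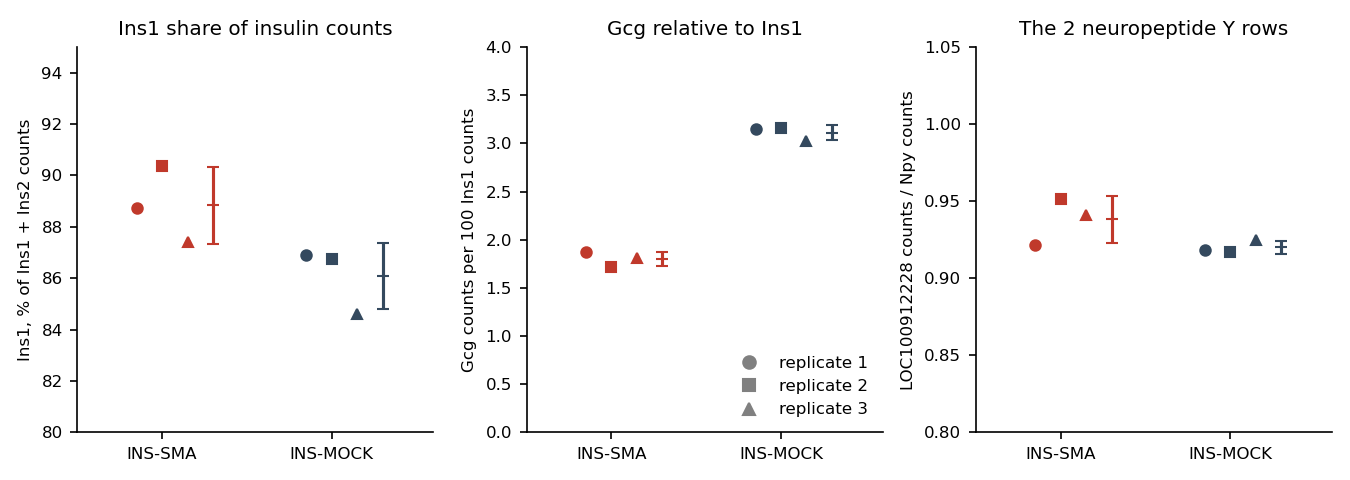
Ratios of counts within each library, with INS-SMA in red on the left and INS-MOCK in dark blue on the right. Bars beside the points show mean and SD over 3 libraries, and the left and right panels have axes that do not start at 0. The Ins1 share is 87.4% to 90.4% in INS-SMA and 84.6% to 86.9% in INS-MOCK, Gcg per 100 Ins1 counts is under 2 in INS-SMA and above 3 in INS-MOCK, and the ratio of the neuropeptide Y rows lies between 0.917 and 0.951 throughout.

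Neuropeptide Y is an amidated peptide of the pancreatic polypeptide family that inhibits insulin release in rodent islets. The deposited table holds its gene as a pair of adjacent rows on chromosome 4. The row with the symbol Npy (ENSRNOG00000046449, 79573998 to 79581208, plus strand) carries the Entrez number 100912228 and the name pro-neuropeptide Y-like. The row with the symbol LOC100912228 (ENSRNOG00000009768, 79557854 to 79565097, plus strand) carries the Entrez number 24604 and the name neuropeptide Y. RefSeq pairs 24604 with Npy, so symbol and Entrez number are crossed between these rows. Each row is called here by its symbol. The rows lie 8900 bases apart and name the same protein entry.

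The Npy row had 499, 616 and 766 counts in the INS-SMA libraries, against 5136, 4638 and 4969 in the INS-MOCK libraries. This was 30.0, 28.3 and 29.8 CPM in INS-SMA, against 212.1, 207.9 and 212.4 CPM in INS-MOCK. Spread within a group was small beside the gap between groups. Npy fell by 2.84 on the log2 scale (SE 0.04 and an edgeR adjusted p of 2.23e-06), 7.18-fold lower.

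LOC100912228 had 460, 586 and 721 counts in the INS-SMA libraries, against 4717, 4252 and 4596 in the INS-MOCK libraries. It was at 27.6, 26.9 and 28.0 CPM in INS-SMA, against 194.8, 190.6 and 196.4 CPM in INS-MOCK. It fell by 2.82 on the log2 scale (SE 0.04 and an edgeR adjusted p of 2.01e-06). The ratio of its counts to those of the Npy row was 0.922, 0.951 and 0.941 in INS-SMA, against 0.918, 0.917 and 0.925 in INS-MOCK, and the groups overlap (exact two-sided permutation p = 0.2). Reads of the rows may not be separable, so they are not independent observations. Merged, they had a log2 fold change of -2.82 (SE 0.04).

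The 95% interval of Npy (-2.95 to -2.74) lay apart from those of Ins1 and Gcg, and Npy stood at rank 98 from the lowest among the 9356 genes. Nearest to both neuropeptide Y rows in pattern was Pcsk2, the gene of the convertase PC2, at distances of 0.065 from Npy and 0.061 from LOC100912228. Pcsk2 was at 589, 611 and 668 CPM in INS-SMA, against 4362, 4610 and 4547 CPM in INS-MOCK. Second nearest were Stc1, which encodes the hormone stanniocalcin 1, for Npy (0.089) and Pdia6, an endoplasmic reticulum disulfide isomerase gene, for LOC100912228 (0.076). The RefSeq stretch before Npy is shown as the promoter of a gene called lower that lacks the searched letters. RefSeq gives it for Entrez number 24604, the number of the LOC100912228 row. It lies at chr4:80211861-80212110 on GRCr8 (plus strand) and has a GC content of 67.6%.
Npy: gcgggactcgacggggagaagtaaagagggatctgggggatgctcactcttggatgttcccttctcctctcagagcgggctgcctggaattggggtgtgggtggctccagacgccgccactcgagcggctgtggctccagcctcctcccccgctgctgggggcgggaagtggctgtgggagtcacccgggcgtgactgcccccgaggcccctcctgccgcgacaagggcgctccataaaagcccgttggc
None of the 4 motifs was found in it. The GC content of the Ins1 stretch is 50.8%. A missing match says only that these letters are not in this window.

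**Figure D3:**
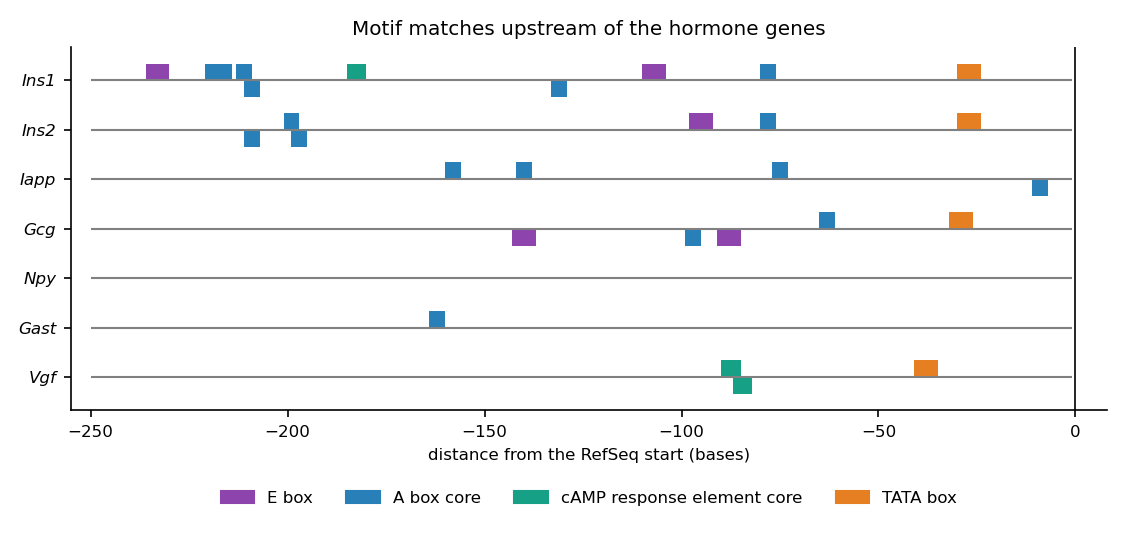
Motif matches in the 250 bases before the RefSeq start of 7 genes, as distance from the start in bases, with matches on the gene's strand above each line and on the opposite strand below it. E box cores are seen for Ins1, Ins2 and Gcg, Npy has no match, and Vgf has the cAMP response element core on both strands.

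Cholecystokinin and gastrin are amidated peptides with the same C-terminal end, and both act on the receptor encoded by Cckbr. Gastrin is found in the fetal rodent pancreas, and cholecystokinin is made by gut I cells and neurons. The pair moved in opposite directions here. Cck (ENSRNOG00000019321, chromosome 8, 130120523 to 130127392, minus strand) had 494, 667 and 1079 counts in the INS-SMA libraries, against 101, 50 and 37 in the INS-MOCK libraries. Its CPM was 29.7, 30.6 and 42.0 in INS-SMA, against 4.17, 2.24 and 1.58 in INS-MOCK. INS-SMA replicate 3 was the highest of all libraries and INS-MOCK replicate 1 the highest of its group, and the groups did not overlap. Cck rose by 3.67 on the log2 scale (SE 0.42 and an edgeR adjusted p of 7.97e-04), 12.8-fold higher, and it stood at rank 155 from the highest among the 9356 genes. The genes nearest in pattern were Stat2, a transducer of interferon signals, at 0.241, and the transcription factor gene Mef2c at 0.252. Stat2, picked for such likeness, shared with Cck the higher value in INS-MOCK replicate 1 (69.0 CPM against 37.6 and 38.0 CPM in the others).

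Gast (ENSRNOG00000014740, chromosome 10, 88245532 to 88248484, plus strand) had 4, 6 and 15 counts in the INS-SMA libraries, against 41, 52 and 35 in the INS-MOCK libraries. Its CPM was 0.240, 0.275 and 0.583 in INS-SMA, against 1.69, 2.33 and 1.496 in INS-MOCK. All values were low, near the floor in INS-SMA, and the groups did not overlap. Gast fell by 2.29 on the log2 scale (SE 0.43 and an edgeR adjusted p of 0.00608), 4.88-fold lower, with a 95% interval of -3.36 to -1.21. Its nearest genes in pattern were Aaas (0.211) and Hagh (0.221), both highest in INS-SMA replicate 3 within that group.

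Iapp (ENSRNOG00000012417, chromosome 4, 176510696 to 176516083, plus strand) encodes amylin, which beta cells store and release with insulin. The named row of Iapp had 28, 256 and 30 counts in the INS-SMA libraries, against 29, 22 and 18 in the INS-MOCK libraries. Its CPM was 1.68, 11.7 and 1.17 in INS-SMA, against 1.20, 0.986 and 0.769 in INS-MOCK. INS-SMA replicate 2 stood apart, and the lowest INS-SMA library overlapped the INS-MOCK range. Its log2 fold change was 2.30 (SE 0.98 and an edgeR adjusted p of 0.0979, 95% interval -0.14 to 4.74), and 0.52 without INS-SMA replicate 2 (adjusted p = 0.286). DESeq2 called it higher (adjusted p = 0.0163; the alternatives gave 0.0163 to 0.286), so that 2 of the 9 genes were higher by that tool, which called 33.0% of tested genes higher and 29.7% lower. The nearest genes were Dis3 and Eif4g1, at 0.317 and 0.390. Both, picked for likeness, were highest in INS-SMA replicate 2. There Dis3 was at 120.4 CPM, against 31.9 and 15.2 CPM in the other INS-SMA libraries.

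Vgf (ENSRNOG00000001416, chromosome 12, 22677607 to 22680630, minus strand) encodes a granin-like precursor of neuroendocrine peptides. It had 53, 49 and 34 counts in the INS-SMA libraries, against 65, 60 and 44 in the INS-MOCK libraries. Its CPM was 3.18, 2.25 and 1.32 in INS-SMA, against 2.68, 2.69 and 1.88 in INS-MOCK, and the groups overlapped. Its log2 fold change was -0.11 (SE 0.38 and an edgeR adjusted p of 0.837) with a 95% interval of -1.06 to 0.84, and it turned to 0.17 without INS-SMA replicate 3. With these counts in the named row of Vgf, no difference was detected. The stretch before its start holds the cAMP response element core on both strands, in overlapping matches (-90 to -86 and -87 to -83 bases from the start). Of all stretches 18.2% hold this core at least once and 3.98% at least 2 times, with overlapping matches counted separately.

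**Figure D4:**
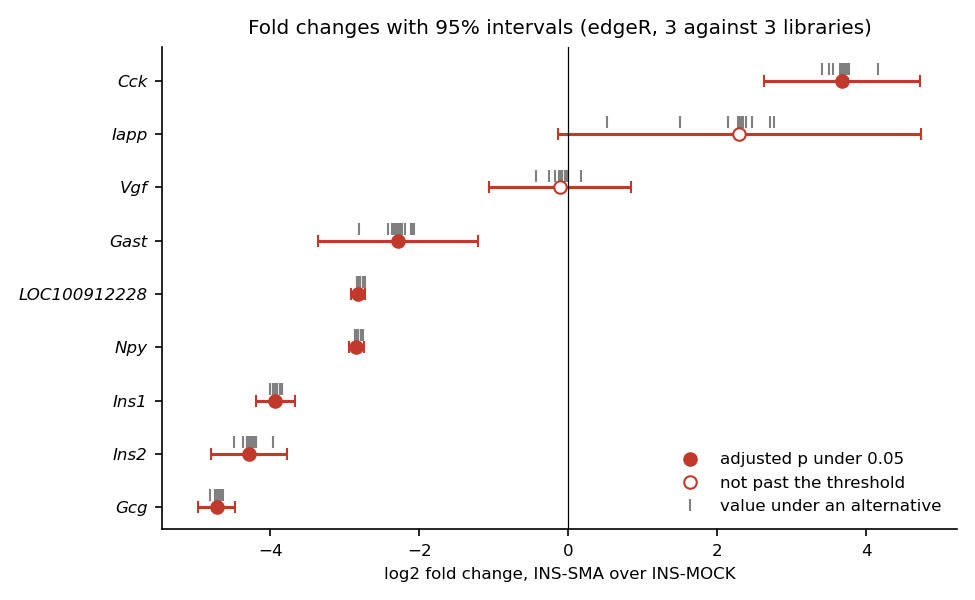
Log2 fold changes of INS-SMA over INS-MOCK with 95% intervals from edgeR's quasi-likelihood test, filled where the adjusted p was under 0.05. Grey ticks give the value under each alternative. Gcg (-4.72), Ins2 (-4.29) and Ins1 (-3.93) are lowest, Cck (3.67) is highest, and the intervals of Iapp and Vgf include 0.

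Within the INS-SMA group, libraries differed in the delivered gene and in the hormone genes. Human ACTA2 held 5.93%, 5.33% and 4.54% of the named counts in replicates 1, 2 and 3. Replicate 3, with the least, had the highest CPM of 6 of the 9 genes (Ins1, Ins2, Gcg, LOC100912228, Cck and Gast), for example 30.1 CPM of Gcg against 24.4 and 26.6 CPM in replicates 1 and 2. Among these 6, Cck was called higher in INS-SMA and the others lower. How many of all tested genes were highest in replicate 3 is not given here. Of the 6, Ins2 and LOC100912228 were slightly lower in replicate 2 than in replicate 1, so they did not follow the ACTA2 order. In the other 3 genes replicate 3 was not the highest INS-SMA library. Replicate 3 was lowest for Vgf (3.18, 2.25 and 1.32 CPM in replicates 1, 2 and 3) and for Iapp (1.68, 11.7 and 1.17 CPM), and Npy was at 30.0, 28.3 and 29.8 CPM. LOC100912228 varied as little as Npy (27.6, 26.9 and 28.0 CPM). With 3 libraries the part of the ACTA2 level in these values was not tested.

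Most listed genes of the machinery that makes and packs these hormones were lower with them. The list was written with earlier results of these data known. Of 22 genes of prohormone processing, the early secretory path and the granule, all tested, 19 fell and 0 rose, where 27.0% of all tested genes were called lower and 28.1% higher, and the median log2 fold change was -1.84. The convertase genes Pcsk1 (-3.33) and Pcsk2 (-2.86) fell, as did those of the carboxypeptidase Cpe (-1.58) and the amidating enzyme Pam (-2.33), which neuropeptide Y, cholecystokinin, gastrin and amylin need. Granin genes also fell: Scg2 (-3.02), Chgb (-2.40), Chga (-2.39) and Scg3 (-2.06). So did the zinc transporter gene Slc30a8 (-2.11), needed for insulin crystals, and Ptprn (-1.89). In the early path, genes of the signal peptidase (Spcs1, -1.84; Sec11c, -1.58), of translocation (Ssr1, -1.97) and of disulfide formation (P4hb, -1.27) fell. Scg5, the chaperone of PC2, fell by 0.20 (edgeR adjusted p = 0.0118), with an adjusted p of 0.115 without normalisation factors and a log2 fold change of -0.63 in its most abundant row. Cpd (1.29), Furin (0.28) and Ptprn2 (-1.10) varied between libraries and did not pass, with edgeR adjusted p-values of 0.463, 0.688 and 0.297.

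Of 40 other hormone and peptide genes, 23 were among the named rows and 12 had enough counts to be tested. Here 4 fell, a share near the 27.0% of all tested genes called lower, and 1 rose, where 28.1% of all tested genes were called higher. The median log2 fold change was -1.18. Igf2, the gene of insulin-like growth factor 2, lies near Ins2 on chromosome 1 (215828102 to 215846911). It was at 188, 200.2 and 192 CPM in INS-SMA, against 630, 583 and 589 CPM in INS-MOCK, a fall of 1.63 on the log2 scale (SE 0.05 and an edgeR adjusted p of 7.16e-06). Nucb2, the nesfatin precursor gene, fell to 151 ± 11.5 CPM in INS-SMA, against 492 ± 25.6 CPM in INS-MOCK (SD, n = 3 each), a log2 fold change of -1.70. Sct (secretin, -0.72, edgeR adjusted p = 0.0449) and Igf1 (-3.09, edgeR adjusted p = 0.0494) passed narrowly. Sct kept its call under 7 of 17 alternatives (adjusted p 0.0345 to 0.131) and Igf1 under 6 of 16 (0.00184 to 0.136). Nppc, which encodes C-type natriuretic peptide, had 41, 47 and 70 counts in INS-SMA, against 0 in each INS-MOCK library, and so was at least 19.0-fold higher against a floor of 3 counts per library. The other 7 tested genes did not pass. The count of genes that fell was 2 without INS-MOCK replicate 1, 2 or 3 (each left out in turn), and the count that rose was 2 without INS-SMA replicate 3.

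Of 27 genes of hormone receptors and of enzymes that clear the peptides, 23 were in the table by name and 18 had enough counts. Here 6 rose and 3 fell, with a median log2 fold change of 0.03, equal to that of all tested genes at this rounding. Their 9 calls are a share near the 55.1% of all tested genes called in either direction (28.1% higher, 27.0% lower), so the values below describe single genes. The rule for named genes takes Sstr3, Calcrl and Gcgr among those that rose, and the receptors Calcr, Npy1r and Cckbr are named too, chosen after their values were seen. Gcgr, the glucagon receptor gene, was at 4.81, 3.67 and 3.85 CPM in INS-SMA, against 0.413, 0.717 and 0.641 CPM in INS-MOCK (log2 fold change 2.79, SE 0.30, edgeR adjusted p = 6.34e-04). Npy1r, a neuropeptide Y receptor gene, was at 18.1 ± 6.70 CPM in INS-SMA, against 1.73 ± 0.991 CPM in INS-MOCK (log2 fold change 3.38). Cckbr, which binds gastrin and cholecystokinin, had 8, 19 and 25 counts in the INS-SMA libraries, against 0, 2 and 2 in the INS-MOCK libraries (log2 fold change 3.64). Calcr, the core of the amylin receptors, had 13, 28 and 18 counts in INS-SMA, against 0 in each INS-MOCK library, at least 7.15-fold higher. The somatostatin receptor gene Sstr3 rose by 1.27 and the adrenomedullin and calcitonin gene-related peptide receptor gene Calcrl by 3.05 on the log2 scale. Counted in the most abundant transcript row alone, the log2 fold change was 4.69 for Gcgr, 2.73 for Npy1r and 3.75 for Calcrl. Genes that fell were Ide (-0.79), whose product degrades insulin, Ramp2 (-1.90), a partner of Calcrl, and Igf2r (-0.43). The incretin receptor gene Gipr was at 149 ± 2.22 CPM in INS-SMA and 163 ± 9.67 CPM in INS-MOCK (log2 fold change -0.13, edgeR adjusted p = 0.0703), and C1qbp, with 0.08 on that scale, did not pass either (edgeR adjusted p = 0.171).

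Of 29 regulators of hormone gene transcription, 27 were in the table by name and 24 were tested, of which 8 rose and 8 fell, with a median log2 fold change of 0.40. These shares are near the 28.1% of all tested genes called higher and the 27.0% called lower. Isl1, a homeodomain factor of all islet cells, fell to 47.8, 58.3 and 62.5 CPM in INS-SMA, against 290, 309 and 290 CPM in INS-MOCK (log2 fold change -2.40). Neurod1 and Tcf3, whose products pair on E boxes, fell by 1.32 and 0.59 on the log2 scale, and Pdx1 fell by 1.06. Mafa (-1.67), Nkx2-2 (-3.22) and Hnf4a (-0.31) had edgeR adjusted p-values of 0.187, 0.0503 and 0.0648. Among the genes that rose were Atf3 (5.90) and Ddit3 (1.78, and 2.75 in its most abundant row), stress-induced factors, and Id3 (1.45), an inhibitor of E box binding proteins. Id1, of the same family as Id3, had a log2 fold change of 0.52 (edgeR adjusted p = 0.0849). Rest, a repressor of neuroendocrine genes chosen after its values were seen, was at 3.52 ± 0.361 CPM in INS-SMA and 0.627 ± 0.106 CPM in INS-MOCK (log2 fold change 2.48, SE 0.24, edgeR adjusted p = 4.15e-04).

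**Figure D5:**
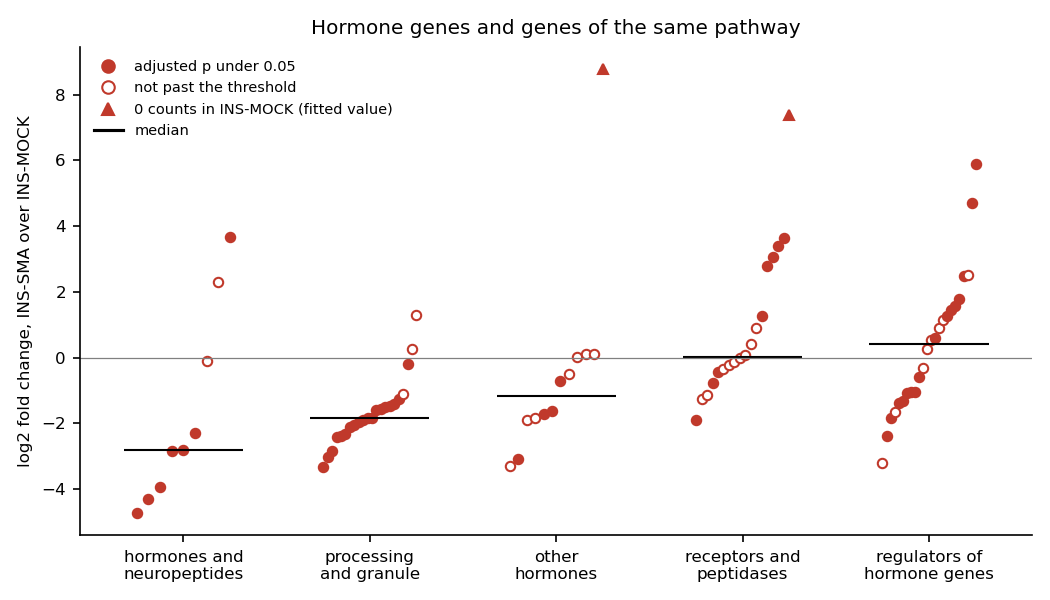
Log2 fold changes of INS-SMA over INS-MOCK for the 9 genes and for the tested members of 4 lists of the same pathway, filled where the adjusted p was under 0.05. Black lines are medians (-2.82, -1.84, -1.18, 0.03 and 0.40 from left to right), and triangles mark fitted values of genes with 0 counts in INS-MOCK, which are not fold sizes.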

How the data were processed

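The deposited data are raw counts per assembled transcript in 1 table of 101905 rows, made by the authors. The submitters' processing notes name the tools HISAT2, HISAT and DESeq2 and the builds rn6 and hg19, without their roles. The sources used here do not give the counting program or the strand setting. The 66301 rows without a gene entered neither library sizes nor tests. Counts were summed per gene, and each of the 9 genes has 1 row. edgeR 4.0.16 (R 4.3.3) filtered genes with filterByExpr, scaled libraries by TMM and ran the quasi-likelihood F-test on the 6 libraries together, with no covariate beside group, and adjusted p-values over 13363 genes by the Benjamini-Hochberg method. SE is the absolute log2 fold change divided by the square root of F, and 95% intervals use the test's total degrees of freedom. The test was checked on simulated counts. Replicates are called biological by the series and differed beyond counting noise (46.8 to 61.0 chi-square units per degree of freedom). Floors cover counting error only. The genes, the lists and the rules were chosen with earlier results of these data known. The rule for named genes took the 9 genes, the 2 nearest in pattern to each (log2 CPM with prior count 2), and from each list up to 3 called genes per direction and those of at least 100 CPM in a group; some listed genes are not reported here. Promoter stretches are from RefSeq (GRCr8). Of the 9 symbols 7 matched, with no entry for Cck or LOC100912228. Motif scans and alignment used Biopython 1.88. Alternatives were DESeq2 1.42.0, other scaling factors, other low-count filters, the most abundant row, merged near-identical genes, other library sizes, a replicate block and leaving out each library.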

Additional observations from a re-analysis of the deposited data

How the results depend on the processing

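The 6 genes called lower and Cck kept direction and call under all 17 alternatives, among them leaving human ACTA2 and mitochondrial genes out. Over these, log2 fold changes ran from -4.01 to -3.84 for Ins1, -4.49 to -4.19 for Ins2 (-3.97 for Ins1 and Ins2 merged), -4.81 to -4.63 for Gcg, -2.86 to -2.75 for Npy, -2.83 to -2.72 for LOC100912228, 3.40 to 4.16 for Cck and -2.80 to -2.08 for Gast. Iapp was called with DESeq2 (2.33), which made 2 of the 9 genes higher, and ran from 0.52 to 2.77 when 1 library was left out. Vgf ran from -0.44 to 0.17, turning positive without INS-SMA replicate 3. Of the other hormone genes 4 fell, 7 with DESeq2, and 2 with unscaled libraries, with all genes kept or with the most abundant row per gene. With 1 library left out, 2 or 3 fell and 1 or 2 rose. The share held by the 9 genes was lower in INS-SMA by 2.50 percentage points (difference -2.50), and -1.69 with unnamed rows in the total. The causes were not tested. Replicate numbers did not pair the libraries (correlations of same-numbered deviations -0.03 to -0.01, and 0 of 6 libraries correlated best with their own number). The fit with the replicate block called 3138 genes higher and 3156 lower, against 3753 and 3606 without it; it changed no call among the 9 genes, with Ins1 at -3.94 and Gast at -2.36 (adjusted p = 0.0349). It ended the call of Calcr (adjusted p = 0.066). The alternative that adds unnamed rows overlapping a gene was not run, since those rows carry no coordinates. Gast, Iapp and Vgf rest on 4 to 65 counts per library, apart from 256 of Iapp in INS-SMA replicate 2.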
